A study of Rattus norvegicus with 47 samples.

Results

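The genes described here are 9 genes of naive T cell identity and trafficking, Il7r, Foxo1, Klf2, S1pr1, Lef1, Tcf7, Satb1, Bcl11b and Ets1, out of 20935 gene symbols on the array. They were taken by symbol from the annotation of the data table, and each was measured by 1 probe set, a group of array probes read together as 1 value for the gene. All rats were male spontaneously hypertensive rats (SHR), 16 weeks old, and the labels name no transgene or added mutation. The middle cerebral artery was blocked with a silicon-coated thread under isoflurane and reopened before the 2 h sample. Blood mRNA was measured on 47 arrays of 8 rats, before anesthesia (0 h) and at 1, 2, 3, 6 and 24 h after occlusion, with 8 arrays per time point and 7 at 6 h. Samples up to 6 h were tail vein blood, and those of 24 h were taken by heart puncture after an anesthetic overdose, so site of collection and time cannot be told apart there. RNA came from pellets of heparinized blood and thus from all blood cells together. There was no sham group, so effects of occlusion, surgery, anesthesia and repeated bleeding cannot be told apart either.

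Naive T cells circulate between blood and lymph nodes until they meet their antigen. IL-7, received by the receptor chain IL7R, keeps them alive at rest, and the transcription factor FOXO1 sustains Il7r and Klf2. KLF2 in turn switches on S1pr1, the receptor for sphingosine-1-phosphate that lets T cells leave lymph nodes for the blood. LEF1, TCF7 (TCF-1), SATB1, BCL11B and ETS1 are transcription or chromatin factors that set up and hold T cell identity.

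Of the 9 genes, 8 were below their 0 h level at 6 h, and Klf2 alone was above it. The median changes of the 9 after 1, 2, 3, 6 and 24 h were -0.34, -0.66, -0.53, -0.90 and -0.63, respectively, on the log2 scale. Over all 27596 probe sets the median change lay between 0.04 and 0.07. Lef1 fell furthest, to 44.2% of its 0 h level at 6 h, and 6 of the 9 genes were lowest at 6 h. S1pr1 and Foxo1 were lowest at 2 h and Klf2 at 1 h. The level of each gene is the authors' mean of the log2 RMA signal over the arrays of a time point, given with the authors' deposited SD. RMA brings all arrays to the same distribution, so a level is relative to the other RNA of the sample and not a count of molecules.

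**Figure D1:**
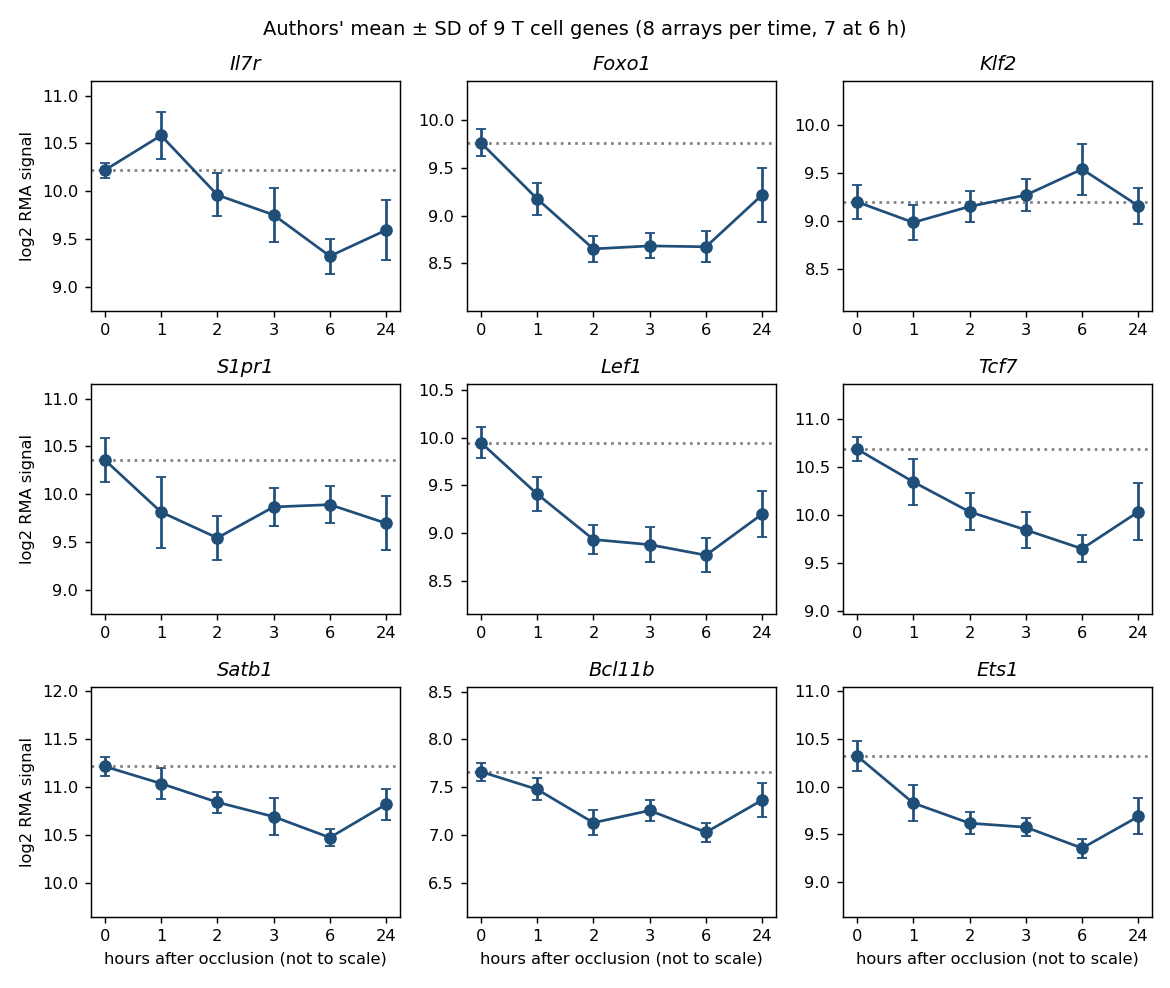
Level of each gene against time after occlusion in hours (positions not to scale), as the authors' mean of the log2 RMA signal. Bars are the authors' SD over 8 arrays (7 at 6 h), the dotted line is the 0 h mean, and every panel spans the same log2 range. Foxo1 reached its low by 2 h and stayed there to 6 h, Il7r went up at 1 h before it went down, and Klf2 was highest at 6 h.

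Promoters of 3 of the genes are shown because they carry the letters that KLF or TCF/LEF factors are known to bind, and because Klf2, Lef1 and Tcf7 are themselves among the 9. The sequences are from RefSeq on the rat build GRCr8, which differs from the rn5 build of the array annotation, and run from 250 bases before the gene's start to 50 after it. The RefSeq table matched 6 of the 9 genes by symbol. Klf2, Bcl11b and Ets1 were not matched. Capitals mark CACCC (or GGGTG on the other strand), the core of the site of KLF factors, and CTTTGAT (or ATCAAAG), a TCF/LEF site. The Tcf7 window lies on the minus strand at chr10:36954230-36954529, that of Lef1 on the plus strand at chr2:222340463-222340762 and that of S1pr1 on the minus strand at chr2:206314021-206314320.
Tcf7: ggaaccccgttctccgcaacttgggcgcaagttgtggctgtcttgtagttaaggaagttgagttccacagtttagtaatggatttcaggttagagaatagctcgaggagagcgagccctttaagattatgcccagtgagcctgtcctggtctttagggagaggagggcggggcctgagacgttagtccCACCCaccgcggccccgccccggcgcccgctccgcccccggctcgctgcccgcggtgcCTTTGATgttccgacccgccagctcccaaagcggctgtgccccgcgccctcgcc
Lef1: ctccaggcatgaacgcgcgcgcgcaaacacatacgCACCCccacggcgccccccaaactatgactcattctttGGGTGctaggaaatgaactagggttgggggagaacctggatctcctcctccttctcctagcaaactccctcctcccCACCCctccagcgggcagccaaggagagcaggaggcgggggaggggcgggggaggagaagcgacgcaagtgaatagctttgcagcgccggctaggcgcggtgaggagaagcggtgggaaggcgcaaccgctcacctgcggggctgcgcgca
S1pr1: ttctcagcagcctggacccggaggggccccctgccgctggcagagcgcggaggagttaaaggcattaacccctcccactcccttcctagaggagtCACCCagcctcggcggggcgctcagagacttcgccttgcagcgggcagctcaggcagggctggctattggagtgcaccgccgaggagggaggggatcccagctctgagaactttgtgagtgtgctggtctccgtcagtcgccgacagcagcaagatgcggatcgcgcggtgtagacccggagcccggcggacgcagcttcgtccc

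CACCC was found on either strand in the windows of 4 of the 6 genes, Lef1, S1pr1, Satb1 and Tcf7, and in 54.9% of all 33469 RefSeq windows of the same length. CTTTGAT was found in 1 of the 6, Tcf7, where it covers bases 247 to 253 of the window and so spans the start, and in 3.63% of all windows. The FOXO letters TGTTTAC (or GTAAACA) and the ETS core CCGGAA (or TTCCGG), searched in the same way, were in none of the 6 windows. They were in 3.78% and 14.95% of all windows. The motifs do not overlap each other in these windows. A match is a description of the letters and not a measured site.

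Changes were tested with limma's moderated test, computed from the authors' means, SDs and array numbers, two-sided, with p-values adjusted over all 27596 probe sets by the Benjamini-Hochberg method. Genes with an adjusted p below 0.05 are said to rise or fall. By this measure 7 of the 9 genes fell at both 1 and 2 h, against 15.4% and 18.6% of all probe sets. At 3, 6 and 24 h the number that fell was 8 of 9 each time, against 19.2%, 19.3% and 13.9% of all probe sets. Rises were found in 1 of the 9 at 1 h (Il7r) and in 1 at 6 h (Klf2), where the shares over all probe sets were 21.7% and 22.5%. No gene of the 9 rose at 2, 3 or 24 h, with 0 also at an unadjusted p below 0.05 in limma's test, against 21.7%, 27.3% and 17.4% of all probe sets. In the F-test over the 6 time points, 7 of the 9 had a p below 5e-07, against 13.5% of all probe sets. All 9 had an adjusted p below 0.05 in that test, which was so for 55.5% of all probe sets. The exceptions at the stricter threshold were S1pr1, with an adjusted p of 1.23e-05, and Klf2, with an adjusted p of 2.06e-04, by limma's moderated F-test.

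**Figure D2:**
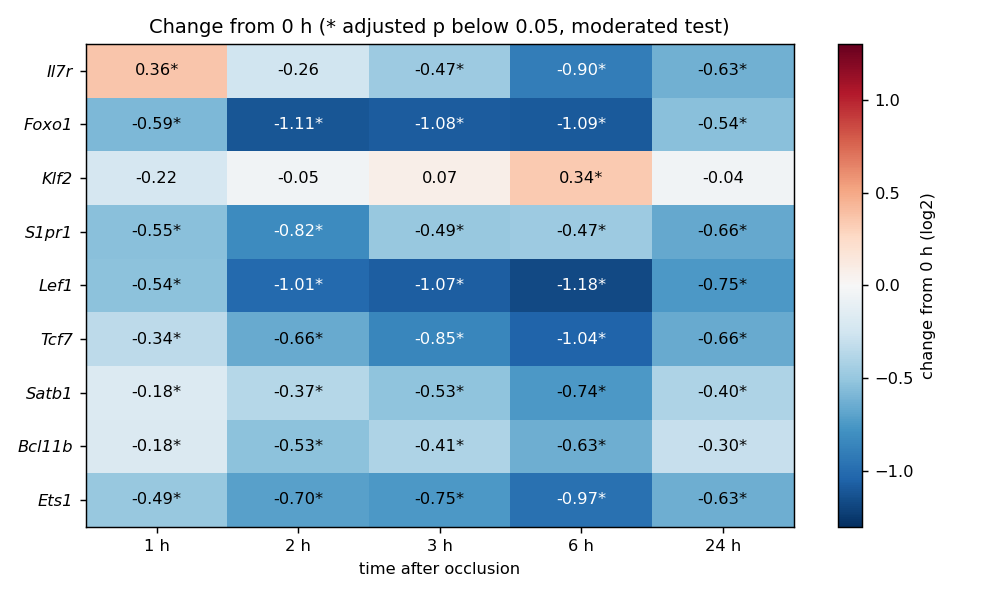
Change of each gene (rows) from 0 h at each later time point (columns), as the difference of the authors' log2 means, with blue for lower and red for higher. An asterisk marks an adjusted p below 0.05. The row of Klf2 stands apart from the others, and the single red cell of Il7r is at 1 h.

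Il7r (probe set 10821851) encodes the alpha chain of the IL-7 receptor. In rn5 it is placed on an unlocalized scaffold of chromosome 2, minus strand, from 25569 to 47834. Its level was 10.22 (authors' SD 0.08) at 0 h, 10.58 (SD 0.24) at 1 h, 9.96 (SD 0.22) at 2 h, 9.75 (SD 0.28) at 3 h, 9.32 (SD 0.18) at 6 h and 9.59 (SD 0.32) at 24 h. It was thus highest at 1 h, when most of the other genes had already gone down. The rise at 1 h was 0.36 ± 0.11 (SE), to 128.6% of the 0 h level, with an adjusted p of 0.00991. From 1 to 2 h Il7r fell by 0.62 ± 0.11 (adjusted p = 1.34e-04), the largest step down of the 9 genes in that interval. At 2 h its change from 0 h was -0.26, with an adjusted p of 0.0612, and this passed 0.05 when the means were centred on their median, when only the SDs of 0 and 2 h were used and when the 24 h samples were left out. By 6 h Il7r had fallen by 0.90 ± 0.12, to 53.6% of the 0 h level, with an adjusted p of 1.45e-08. From the 1 h high to the 6 h low the step was -1.26, larger than the span of any other gene of the 9. The authors' SD of Il7r was 3.97 times as large at 24 h as at 0 h.

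Foxo1 (probe set 10815317; rn5 chr2:161139994-161216902, plus strand) encodes the forkhead factor that holds T cells in the resting state. Its level was 9.76 (authors' SD 0.14) at 0 h, 9.17 (SD 0.17) at 1 h, 8.65 (SD 0.13) at 2 h, 8.68 (SD 0.13) at 3 h, 8.67 (SD 0.16) at 6 h and 9.22 (SD 0.28) at 24 h. The levels at 2, 3 and 6 h were not told apart by the test, with a change of -0.01 (95% confidence interval -0.19 to 0.17) from 3 to 6 h. The fall was 1.11 ± 0.09 at 2 h, to 46.3% of the 0 h level, with an adjusted p of 9.99e-15. Foxo1 rose by 0.54 ± 0.09 between 6 and 24 h (adjusted p = 7.59e-06), and 49.0% of the largest fall remained at 24 h. Among the 9 genes it had the lowest adjusted p of limma's F-test, 6.18e-16, at rank 407 of all probe sets.

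Klf2 (probe set 10790670; rn5 chr16:19084196-19086146, minus strand) encodes a zinc finger factor of quiescent T cells that is also made by other blood cells and endothelium. Its level was 9.20 (authors' SD 0.18) at 0 h, 8.98 (SD 0.18) at 1 h, 9.15 (SD 0.16) at 2 h, 9.27 (SD 0.16) at 3 h, 9.54 (SD 0.27) at 6 h and 9.16 (SD 0.18) at 24 h. The change at 1 h was -0.22 with an adjusted p of 0.0639, which became 0.0259 after centring of the means and 0.278 after their quantile normalization. At 6 h Klf2 rose by 0.34 ± 0.10, to 126.7% of the 0 h level, with an adjusted p of 0.00376. It rose by 0.56 ± 0.10 between 1 and 6 h (adjusted p = 1.67e-05) and fell by 0.38 ± 0.10 between 6 and 24 h (adjusted p = 0.00264). At 24 h the change from 0 h was -0.04, with a 95% confidence interval from -0.23 to 0.15. Its signs at 2 and 24 h turned under quantile normalization, where neither change passed the test.

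S1pr1 (probe set 10826235; rn5 chr2:236742193-236746400, minus strand) encodes the egress receptor. Its level was 10.36 (authors' SD 0.23) at 0 h, 9.81 (SD 0.37) at 1 h, 9.54 (SD 0.23) at 2 h, 9.87 (SD 0.20) at 3 h, 9.89 (SD 0.20) at 6 h and 9.70 (SD 0.28) at 24 h. S1pr1 was thus lowest at 2 h, and its 3 and 6 h means lay above that low, whereas those of Il7r, Tcf7 and Satb1 were below their 2 h means. The fall at 2 h was 0.82 ± 0.12, to 56.8% of the 0 h level, with an adjusted p of 5.51e-07. The upward steps did not pass the test after adjustment. That from 2 to 3 h was 0.32 with an adjusted p of 0.156, and that from 2 to 6 h was 0.35 with an adjusted p of 0.0774 and a 95% confidence interval from 0.09 to 0.61. At 24 h S1pr1 was 0.66 ± 0.12 below 0 h (adjusted p = 6.56e-05), which is 81.2% of its largest fall. Of its 6 levels, that at 0 h differed from the next highest, at 6 h (adjusted p = 0.00296), and no other neighbours in the order of levels were told apart. Compared side by side with no test between genes, Klf2 had its highest level at 6 h while S1pr1 was 0.47 below its 0 h level there.

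Lef1 (probe set 10819052; rn5 chr2:254782386-254892652, plus strand) and Tcf7 (probe set 10742555; rn5 chr10:37389825-37419231, minus strand) encode the HMG box factors of the TCF/LEF family in T cells, which work with beta-catenin and with TLE corepressors. The level of Lef1 was 9.95 (authors' SD 0.16) at 0 h, 9.41 (SD 0.18) at 1 h, 8.93 (SD 0.15) at 2 h, 8.88 (SD 0.18) at 3 h, 8.77 (SD 0.18) at 6 h and 9.20 (SD 0.24) at 24 h. The level of Tcf7 was 10.69 (authors' SD 0.13) at 0 h, 10.35 (SD 0.24) at 1 h, 10.03 (SD 0.19) at 2 h, 9.84 (SD 0.19) at 3 h, 9.65 (SD 0.14) at 6 h and 10.03 (SD 0.30) at 24 h. Both genes were highest at 0 h and lowest at 6 h, and the means of both went down at each step between. Lef1 fell by 1.01 ± 0.09 at 2 h (adjusted p = 5.03e-13) and by 1.18 ± 0.09 at 6 h (adjusted p = 1.06e-14). Tcf7 fell by 0.66 ± 0.10 at 2 h (adjusted p = 6.52e-07) and by 1.04 ± 0.10 at 6 h (adjusted p = 1.61e-11), to 48.6% of the 0 h level. At 24 h 63.4% of the largest fall of Lef1 and 62.9% of that of Tcf7 remained.

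Satb1 (probe set 10921274; rn5 chr9:2150779-2222066, plus strand) encodes a genome organizer of T cells. Its level was 11.22 (authors' SD 0.10) at 0 h, 11.04 (SD 0.16) at 1 h, 10.84 (SD 0.11) at 2 h, 10.69 (SD 0.19) at 3 h, 10.47 (SD 0.09) at 6 h and 10.82 (SD 0.17) at 24 h. Each mean up to 6 h was below the one before it, and the fall at 6 h was 0.74 ± 0.07 (adjusted p = 1.20e-11). No single step between neighbouring time points up to 6 h passed the test after the first, whose adjusted p was 0.0442.

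Bcl11b (probe set 10892109; rn5 chr6:141004422-141096845, minus strand) encodes a zinc finger factor needed for commitment to the T cell lineage. Its level was 7.66 (authors' SD 0.09) at 0 h, 7.48 (SD 0.11) at 1 h, 7.13 (SD 0.13) at 2 h, 7.26 (SD 0.11) at 3 h, 7.03 (SD 0.10) at 6 h and 7.37 (SD 0.18) at 24 h. The fall at 6 h was 0.63 ± 0.07, to 64.4% of the 0 h level (adjusted p = 5.58e-11). Its fall of 0.18 at 1 h (adjusted p = 0.0208) did not pass the test after quantile normalization of the means, with an adjusted p of 0.131.

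Ets1 (probe set 10908896; rn5 chr8:33811525-33921560, plus strand) encodes an ETS factor of T, B and NK cells. Its level was 10.32 (authors' SD 0.16) at 0 h, 9.83 (SD 0.19) at 1 h, 9.62 (SD 0.11) at 2 h, 9.58 (SD 0.09) at 3 h, 9.36 (SD 0.10) at 6 h and 9.69 (SD 0.19) at 24 h. Ets1 fell by 0.49 ± 0.07 at 1 h (adjusted p = 7.93e-07) and by 0.97 ± 0.08 at 6 h (adjusted p = 8.10e-15). The 6 h level had thus dropped by 5.13 of the gene's highest deposited SD, the largest such ratio of the 9 genes at any time point. At 6 h the change exceeded the gene's own highest SD in all 9 genes, and at 24 h in 8 of 9.

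Between neighbouring time points, 5 of the 9 genes fell from 1 to 2 h, Il7r, Lef1, Tcf7, Foxo1 and Bcl11b, against 4.11% of all probe sets, and none rose (0 also at an unadjusted p below 0.05 in limma's test), against 4.66%. The step of Tcf7, with an adjusted p of 0.0411, missed the threshold under 4 of the 7 alternatives (adjusted p from 0.0525 to 0.0603). From 2 to 3 h none passed the test in either direction, against 1.62% of all probe sets that fell and 1.90% that rose. Unadjusted p-values below 0.05 in that step were found for 1 fall (Satb1) and 1 rise (S1pr1), by limma's moderated test. Il7r and Bcl11b fell from 3 to 6 h, against 2.44% of all probe sets, and none of the 9 rose, against 2.34%. At an unadjusted p below 0.05 in limma's test 1 gene rose in this step, Klf2. The count of 2 became 1 when only the SDs of these time points entered the error, since Bcl11b then had an adjusted p of 0.0707. From 6 to 24 h 6 of the 9 rose, against 10.2% of all probe sets, and Klf2 fell, against 8.68%. The rises ran from 0.33 ± 0.08 in Ets1 to 0.54 ± 0.09 in Foxo1. Il7r changed by 0.27 (adjusted p = 0.0995) and S1pr1 by -0.19 (adjusted p = 0.336) in this last step. In the 8 genes that fell at 24 h, the median share of the largest fall that remained was 63.2%. It was smallest in Bcl11b, at 46.6%, and largest in S1pr1.

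**Figure D3:**
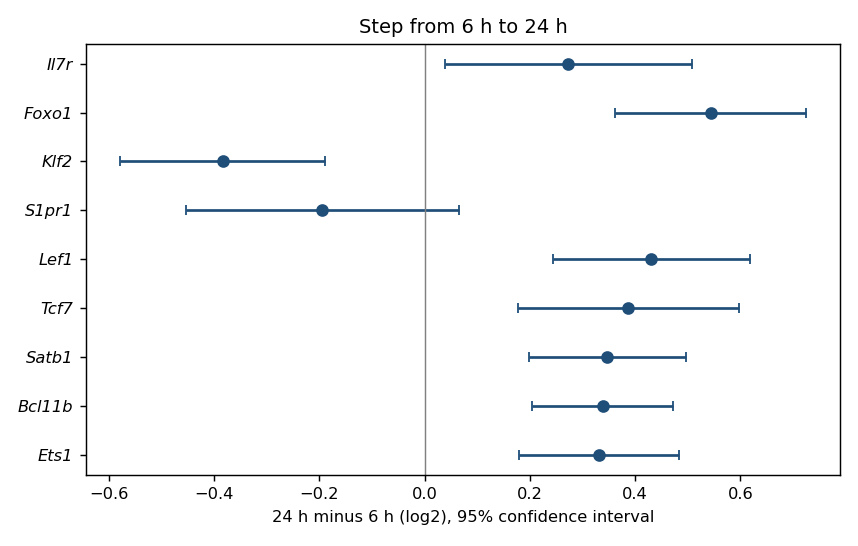
Difference between 24 h and 6 h for each gene on the log2 scale, as points with 95% confidence intervals from the moderated test. The intervals of 7 genes lie above 0, that of Klf2 lies below 0 and that of S1pr1 crosses it; after adjustment over all probe sets the rise of Il7r did not pass.

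The defining markers of T cells also fell. Cd3e, part of the T cell receptor complex, went from 10.18 at 0 h to 8.94 at 6 h, and the coreceptor genes Cd4 and Cd8a went from 10.67 to 9.12 and from 11.15 to 9.87. All 13 T cell markers (Cd3d, Cd3e, Cd3g, Cd247, Cd2, Cd5, Cd6, Lck, Zap70, Lat, Cd4, Cd8a and Cd8b) fell at 2, 3 and 6 h, and 12 of 13 fell at 1 and 24 h, against 13.9% to 19.3% of all probe sets over these times. Over the same 5 time points their median changes were -0.37, -0.90, -0.95, -1.14 and -0.70. In blood measured in bulk, fewer T cells and less RNA of a gene per T cell cannot be told apart. Set beside the T cell markers at 6 h, the change of Lef1 minus their median was -0.04, while Foxo1 was above it by 0.05, Tcf7 by 0.10 and Ets1 by 0.18. Il7r was above it by 0.24, Satb1 by 0.40, Bcl11b by 0.51, S1pr1 by 0.67 and Klf2 by 1.48. At 1 h Il7r was 0.73 above the median of the T cell markers. These are differences between genes, given without a test.

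Markers of other blood cells moved too. Their counts stand against 13.9% to 19.3% of all probe sets that fell and 17.4% to 27.3% that rose at these times, with 19.3% and 22.5% at 6 h. All 10 neutrophil markers rose at 1, 2, 3 and 6 h and 8 of 10 at 24 h, and their median changes after 1, 6 and 24 h were 1.28, 1.82 and 0.80. The summed signal of these markers, on the linear scale, was 325.3% of the 0 h value at 6 h, while that of the T cell markers was 44.4% and that of the 9 genes 59.1%. B cell markers fell in 9 of 10 at 1 h and in 10 of 10 at 2 h, with a median change of -2.04 at 2 h, -1.74 at 6 h and -0.53 at 24 h. Foxo1, Ets1 and S1pr1 are also made by B cells. NK and cytotoxic markers fell in 7 of 10 at 6 h, with a median change of -0.69. Monocyte markers were mixed, with 3 of 8 lower and 4 of 8 higher at 6 h, and 7 measured platelet markers had a median change of 0.07 there. Erythroid markers had a median change of -0.12 at 6 h. Because each level is relative to the other RNA in the sample, the rise of neutrophil RNA stands beside the falls of the 9 genes, and its part in them was not tested. At each time point the median change of the 9 genes was smaller in size than that of the T cell markers.

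**Figure D4:**
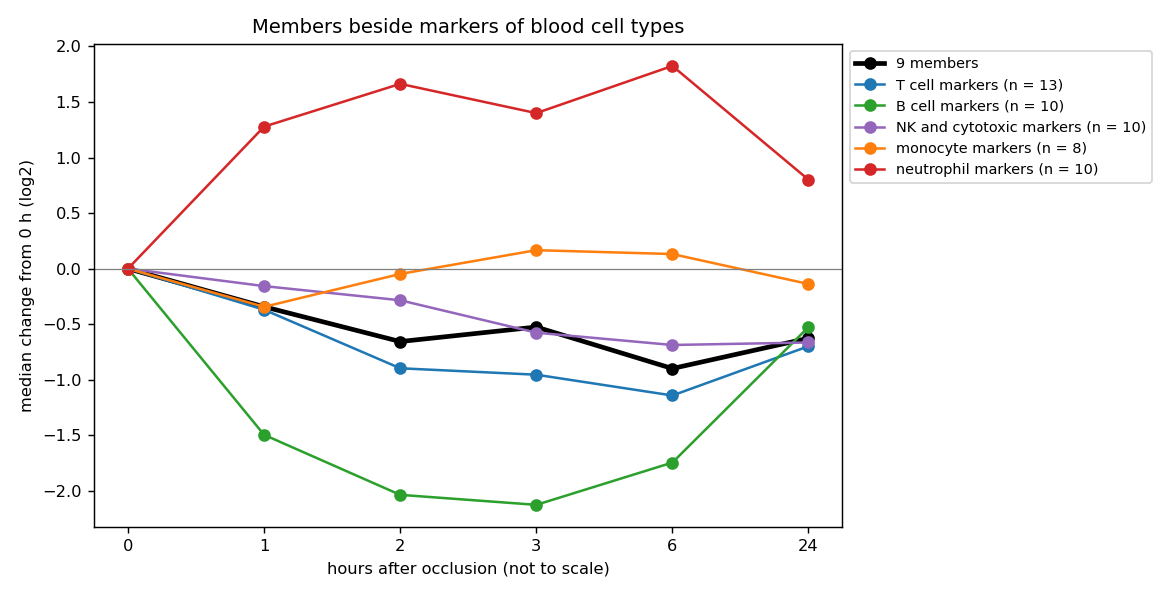
Median change from 0 h on the log2 scale against time after occlusion (positions not to scale), for the 9 genes (named members in the key) and for marker lists of 5 blood cell types, with the number of measured genes in each list. The lines of the 9 genes and of the T cell markers are closest at 1 h (-0.34 and -0.37) and furthest apart at 3 h (-0.53 and -0.95), and neutrophil markers lie above 0 throughout.

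The genes that surround the 9 in naive T cells mostly fell with them. Of 23 measured genes of naive T cells and lymph node homing, 14 fell and 2 rose at 1 h, 17 fell and 4 rose at 2 h, 16 fell and 4 rose at 6 h, and 18 fell and 3 rose at 24 h. Over all probe sets the shares that fell after 1, 2, 6 and 24 h were 15.4%, 18.6%, 19.3% and 13.9%, and those that rose were 21.7%, 21.7%, 22.5% and 17.4%, so the numbers of the list that rose were near or below the share over all. The median change of the list at 6 h was -0.88. Ccr7, the chemokine receptor for lymph node entry, fell by 1.29 ± 0.11 at 6 h, after -1.10 at 2 h. The largest falls of the list were at 6 h, when Cd28, a costimulatory receptor, fell by 1.45 ± 0.18 and Themis, a T cell receptor signalling protein, fell by 1.31 ± 0.12. The largest rises were those of Actn1, a cytoskeletal protein, at 0.88 ± 0.07 at 2 h, and Il6st, the shared receptor chain of the IL-6 family, at 0.58 ± 0.09 at 3 h. Both are widely expressed and not limited to T cells.

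Of 10 partners of IL-7 receptor signalling, 3 fell and 3 rose at 6 h, with a median change of -0.05. Both counts are near the shares over all probe sets at 6 h, 19.3% lower and 22.5% higher. Il2rg, the receptor chain that pairs with IL7R, fell by 1.01 ± 0.10 at 6 h, and Bcl2, a survival gene downstream of IL-7, fell by 1.55 ± 0.13, more than any of the 9 genes. Stat5b, the transducer of the signal, rose by 0.85 ± 0.09 at 6 h, and Pim1, a kinase gene switched on by STAT5, rose by 0.92 ± 0.10 at 3 h. Stat5b and Pim1 are also used by myeloid cells.

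Of 15 partners and relatives of LEF1 and TCF7, 4 fell and 2 rose at 6 h, and 9 did not pass the test. The number that fell is near the 19.3% of all probe sets, and 22.5% of all probe sets rose. Tcf7l2, a TCF factor found in monocytes, fell by 1.32 ± 0.16 and Axin2, a target gene of the pathway, by 0.61 ± 0.07 at 6 h. The corepressor genes Tle3 and Tle4 rose, Tle3 by 0.97 ± 0.08 at 6 h and Tle4 by 0.62 ± 0.06 at 2 h.

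Around S1PR1, 6 of 16 measured genes of the sphingosine-1-phosphate and egress list fell and 3 rose at 6 h, against 19.3% and 22.5% of all probe sets, so that the number that rose is near the share over all. Cd69, whose protein removes S1PR1 from the surface of activated lymphocytes, fell too, with -1.07 ± 0.17 at 2 h and -1.36 ± 0.17 at 6 h (adjusted p = 8.77e-09). S1pr5, the receptor of NK cells, fell by 1.08 ± 0.10 at 3 h. Itgb7, an integrin chain of gut homing, rose by 0.57 ± 0.08 and S1pr2 by 0.32 ± 0.07 at 2 h.

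In the PI3K, AKT and FOXO list, 6 of 18 genes fell and 1 rose at 6 h, against 19.3% and 22.5% of all probe sets, with a median change of -0.05. Sesn1 fell by 0.85 ± 0.10 at 6 h and Sesn3 fell by 0.75 ± 0.10 at 3 h, the largest falls of the list. Sesn3 is known as a FOXO target. Sgk1, a kinase that inactivates FOXO proteins, rose by 0.89 ± 0.08 at 1 h (adjusted p = 3.47e-12). Foxo1 mRNA fell by 0.59 ± 0.09 at the same time. A link between the rise of Sgk1 and the fall of Foxo1 was not tested, and blood measured in bulk does not show which cells changed.

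Of 12 other ETS family genes, 9 fell and 2 rose at 6 h, against 19.3% and 22.5% of all probe sets, with a median change of -0.48. Spib, a B cell factor, fell by 1.17 ± 0.09 at 2 h, and Elf4, a factor of T and NK cell quiescence, fell by 0.69 ± 0.09 at 24 h. The rises at 6 h were those of Ets2, at 1.13 ± 0.11, and Spi1, the myeloid factor PU.1, at 0.68 ± 0.07.

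**Figure D5:**
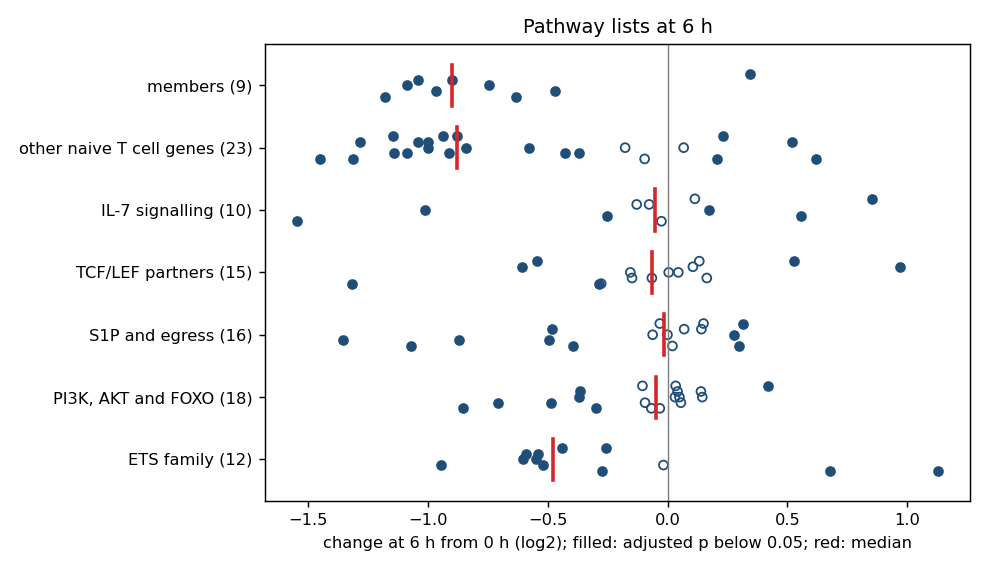
Change at 6 h from 0 h on the log2 scale for every measured gene of 7 lists, of which the first (members) is the 9 genes, with the number of genes in brackets. Filled points have an adjusted p below 0.05 and red bars are list medians; the medians of the 9 genes and of the other naive T cell genes are at -0.90 and -0.88, while those of 4 pathway lists are near 0.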

How the data were processed

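The authors hybridized whole blood RNA to Affymetrix RaGene 1.0 ST arrays and summarized each array by RMA. Their deposited table gives, for 27596 probe sets annotated on rn5, the mean log2 signal of each time point and its SD, the other measure used here. The table also holds 19 columns of the authors' fold changes, p-values and FDRs, which were not used, and 47 single-array columns, named by running numbers that no label gives. These were not assigned to rats by their order and were left unused, so values of single rats are not given. The table does not define its SD, which was taken as the plain sample SD between arrays of the same time, and each SE, p-value and interval rests on that. Where a symbol had several probe sets, the one with the highest mean over the 6 time points was taken.

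Variances were pooled over the time points (41 residual degrees of freedom) and moderated across probe sets with limma 3.58.1 in R 4.3.3. This replaces a fit on the arrays and treats samples of 1 rat as independent. The code was tested on simulated data, where it gave the p-values of limma's own fit. Confidence intervals are 95%. The number of arrays limits the precision of each mean.

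The 9 genes, the 13 lists beside them and the tests were chosen with earlier results of these data known. From each list, the text names the 2 genes with the largest fall and the 2 with the largest rise among those past the FDR, the markers Cd3e, Cd4, Cd8a, Ccr7 and Cd69, and the 5 genes outside the lists with the most similar profile. Some genes that this rule names are not reported here. Of the list genes, Myb, Grk2 and Itgb3 were not matched by symbol. Alternatives were no moderation, an intensity trend with a robust prior, centring or quantile normalization of the means, dropping the dimmest 25% of probe sets, using only the SDs of the time points compared, and leaving out the 24 h samples.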

Additional observations from a re-analysis of the deposited data

How the results depend on the processing

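No paired analysis was possible because the single-array columns carry running numbers that no label gives, and columns were not assigned to rats by their order, so the fit with the rat as a replicate block was not run. Averaging over several probe sets was not run either, since each of the 9 genes had 1. Under the 7 alternatives run, each count of genes that fell or rose stayed within 1.5 times its value, except that the number lower at 6 h than at 3 h went from 2 to 1 when only the SDs of the time points compared were used. The median change of the 9 genes kept its sign at every time point, and at 6 h ranged from -0.93 to -0.84. Counted over single genes and alternatives, 5 values newly passed the test, 6 no longer passed, and 0 of the values that had passed turned sign. Of the 6 lost, 4 were the step of Tcf7 from 1 to 2 h, whose adjusted p of 0.0411 became 0.0525 to 0.0603. The other 2 were Bcl11b at 1 h and Bcl11b from 3 to 6 h. Since 8 rats were sampled repeatedly and the tests treat samples as independent, p-values reflect the spread between samples and leave out the pairing. Signal over background was not assessed, as the table holds no detection values.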

Other observations

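Markers of NK cells and of monocytes moved in both directions. Of the NK and cytotoxic markers, the activating receptor gene Klrk1 fell by 1.35 at 6 h and Prf1, perforin, fell by 1.02 at 3 h, while the receptor gene Klrb1b rose by 1.68 at 3 h and Ncr1 by 0.34 at 6 h. Of the monocyte markers, Cx3cr1 fell by 1.45 at 3 h and Csf1r fell by 1.05 at 6 h, while Cd14 rose by 1.84 and Ccr2 by 0.68 at 3 h. The largest changes of the remaining lists were those of Cd4 (-1.55) and Cd8b (-1.39) at 6 h, the B cell genes Ms4a1 (-2.56) and Ebf1 (-2.49) at 2 h, and the neutrophil genes Il1r2 (3.33) and Lcn2 (2.81) at 6 h. The platelet genes Gp5 (0.54 at 1 h) and Itga2b (0.49 at 24 h) and the erythroid genes Gata1 (0.67 at 1 h) and Slc4a1 (0.58 at 24 h) rose, and Alas2 (-0.11) fell at 6 h. All of these passed limma's moderated test after Benjamini-Hochberg adjustment.

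The deposited SDs of the 9 genes were larger at 24 h than before occlusion. The authors' SD was higher at 24 h than at 0 h in 9 of 9 genes, against 54.3% of all probe sets, and the median ratio of the SDs was 1.60 for the 9 genes and 1.04 over all probe sets. In 5 of the 9 the highest SD of the 6 time points was that at 24 h. The ratio was 3.97 in Il7r, 2.30 in Tcf7, 1.97 in Foxo1 and 1.02 in Klf2. No test of the SDs was run, and the 24 h samples are those drawn from the heart.

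By the root mean square distance of the 5 changes from 0 h to the medians of the 9 genes, the nearest named genes outside the lists were Dnmt1, the maintenance DNA methyltransferase (0.06), Rnf125, a ubiquitin ligase (0.07), Rnf14, a ring finger protein (0.09), Tbc1d4, a regulator of vesicle traffic (0.09), and the probe set annotated to Mir342 (0.09). Of the 9 genes themselves, Ets1 lay nearest to the medians at 0.13, and Klf2 furthest at 0.72. The changes of Dnmt1 were -0.66 at 2 h, -0.86 at 6 h and -0.52 at 24 h. These distances are over 5 differences that share the 0 h samples and are a description of likeness only.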
